A study of Mus musculus with 6 samples.

Results

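De novo fatty acid synthesis turns surplus carbohydrate into fatty acids, and it was examined here through 10 genes chosen by name: Acly, Me1, Acaca, Acacb, Fasn, Elovl6, Scd1, Scd2, Thrsp and Mlxipl. They were read from a table of estimated counts for 45706 genes in 3T3-L1 cells, a mouse embryo fibroblast line that can be differentiated into adipocytes. The series compared 3 libraries from cells stably expressing a scrambled shRNA (scrambled control, genotype labelled WT) with 3 libraries from cells stably expressing an shRNA against Rbms1, which encodes an RNA-binding protein (RBMS1 knockdown). The shRNA was delivered by lentivirus and the knockdown cells were selected with puromycin, so the groups are selected lines, and the number of shRNA sequences and clones behind them is not given in the sources used here. All 6 cultures received the same adipogenic cocktail, which held IBMX, insulin, dexamethasone and rosiglitazone, and were collected on day 7. The methods call the libraries of a group biological replicates, but nothing in the labels says that each came from a separate transduction, so the tests measure the spread between these cultures.

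In the pathway, citrate exported from mitochondria is cleaved by ATP citrate lyase (Acly) into cytosolic acetyl-CoA, and malic enzyme (Me1) supplies NADPH. Acetyl-CoA carboxylases make malonyl-CoA, Acaca in the cytosol for synthesis and Acacb at the mitochondrial surface, where malonyl-CoA restrains fatty acid oxidation. Fatty acid synthase (Fasn) builds palmitate, Elovl6 elongates it, and the stearoyl-CoA desaturases Scd1 and Scd2 add the double bond of the common monounsaturated fatty acids. Insulin and glucose drive these genes through the transcription factors SREBP-1c and ChREBP, the latter encoded by Mlxipl, and Thrsp (Spot 14) is a small nuclear and cytosolic protein that accompanies lipogenesis in fat and liver. Mature adipocytes express the set, and its induction is part of the 3T3-L1 differentiation programme.

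The genes lie on several chromosomes. Fasn, Acly and Acaca are on chromosome 11 of GRCm38, 3 separate loci, and Scd1 and Scd2 belong to the Scd cluster on chromosome 19, where Scd2 spans 44293674 to 44306864 and Scd1 spans 44394455 to 44407879. The remaining members are Thrsp on chromosome 7 (97412938 to 97417730), Mlxipl (135089890 to 135138382) and Acacb (114146535 to 114250761) on chromosome 5, Elovl6 on chromosome 3 (129532355 to 129638495) and Me1 on chromosome 9 (86581371 to 86695953). All 10 are annotated as protein coding.

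The 250 bases before the annotated RefSeq start (GRCm38.p6) could be read for 8 of the 10 genes, in 10 windows because Me1 and Mlxipl had a pair of starts each. The windows of Fasn (chr11:120824548-120824797, minus strand) and Acly (chr11:100528001-100528250, minus strand) are shown because both lie wholly before an annotated gene start on chromosome 11 and because the ratio of Fasn to Acly counts, given further on, did not overlap between the groups. Both are written 5′ to 3′ and end at the base before the start. Capitals mark a CCAAT box (CCAAT, or ATTGG on the opposite strand) in Fasn and a GC box (GGGCGG, or CCGCCC on the opposite strand) in Acly.
Fasn: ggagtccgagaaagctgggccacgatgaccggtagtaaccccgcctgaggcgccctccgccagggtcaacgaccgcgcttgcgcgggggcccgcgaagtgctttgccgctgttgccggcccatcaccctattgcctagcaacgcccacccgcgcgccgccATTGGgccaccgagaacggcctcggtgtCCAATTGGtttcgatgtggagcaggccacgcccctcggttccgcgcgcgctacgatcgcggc
Acly: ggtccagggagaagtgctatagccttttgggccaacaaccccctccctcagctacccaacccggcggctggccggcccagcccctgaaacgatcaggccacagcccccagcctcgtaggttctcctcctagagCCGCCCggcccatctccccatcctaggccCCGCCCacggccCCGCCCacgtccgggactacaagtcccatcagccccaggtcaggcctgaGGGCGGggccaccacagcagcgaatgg
The Fasn window held 3 CCAAT boxes, of which the last pair overlap in the palindrome nearest the start, at bases -62 to -58 and -59 to -55, and it held no GC box. The Acly window held 4 GC boxes and no CCAAT box. A CCAAT box was found in a window of 5 member genes (Acacb, Fasn, Me1, Mlxipl and Thrsp) and in 33.8% of 32851 RefSeq windows of the same length, and a GC box in 3 member genes (Acly, Me1 and Mlxipl) and in 32.7% of all windows. The E-box CACGTG (6.02% of all windows) and the sterol regulatory element TCACNCCAC or GTGGNGTGA (1.05%) each matched in Mlxipl alone among the 8 genes. Each count covers both strands, and a match describes only the letters of the window. The Thrsp matches lie in bases that the gene annotation also gives as exon. The windows of Acacb and Acaca lie inside the annotated genes, away from their outermost starts. So do the Me1 window with the CCAAT box and the Mlxipl window with the sterol regulatory element.

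Total estimated counts were between 3142695 and 11073098 per library, and 3 counts, the upper limit that a count of 0 allows in a single library, corresponded to 0.220 to 1.49 CPM (counting error only). CPM stands for counts scaled to TMM-adjusted library sizes. Genes derived from ribosomal RNA took 8.12% to 17.8% of the counts in 5 libraries and 43.0% in scrambled control replicate 2, which was also the shallowest. Rbms1 was at 113, 102 and 99.6 CPM in the controls and at 49.2, 61.4 and 84.0 CPM in the knockdown libraries, 61.9% of the control mean (adjusted p = 0.185), lower in each knockdown library than in each control. All 12 adipocyte markers examined were expressed, and their summed level was 22920, 24118 and 26101 CPM in the controls and 22306, 12416 and 14655 CPM in the knockdown libraries. Macrophage markers (Ptprc and Adgre1 at 0 in every library) summed to between 1.60 and 3.39 CPM and endothelial markers (Kdr at 0) to between 0.172 and 1.99 CPM. Preadipocyte and fibroblast markers summed to 10497, 8946 and 8447 CPM in the controls and to 5753, 11291 and 10456 CPM in the knockdown libraries.

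Fold changes below are log2 values of knockdown over control from edgeR's quasi-likelihood test on all 11440 genes that passed the filter on low counts, and a gene was called at a Benjamini-Hochberg adjusted p of 0.1 or less. All 10 members passed the filter. One member, Thrsp, fell, which makes 1 of 10 against 1.22% of all tested genes called in either direction and 0.909% called lower. The other 9 members did not pass, and 2 of them, Fasn and Mlxipl, stood at 46.0% and 46.6% of their control means with no overlap between the groups. Thus 3 of 10 members were lower in every knockdown library than in every control, beside 9.55% of all tested genes, and none was higher without overlap, beside 8.96%. The same 3 were the members with an unadjusted p under 0.05, beside 6.98% of all tested genes lower at that level. In total 8 members had a fold change below 0 (49.6% of all tested genes), with a median of -0.26 beside 0.0044 over all tested genes. With library sizes alone, without TMM factors, all genes shifted upward to a median of 0.37, and 5 members were below 0 with a median of 0.084, or -0.29 relative to that of all genes. These are bulk cultures, in which fewer differentiated cells and less RNA per cell cannot be told apart.

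**Figure D1:**
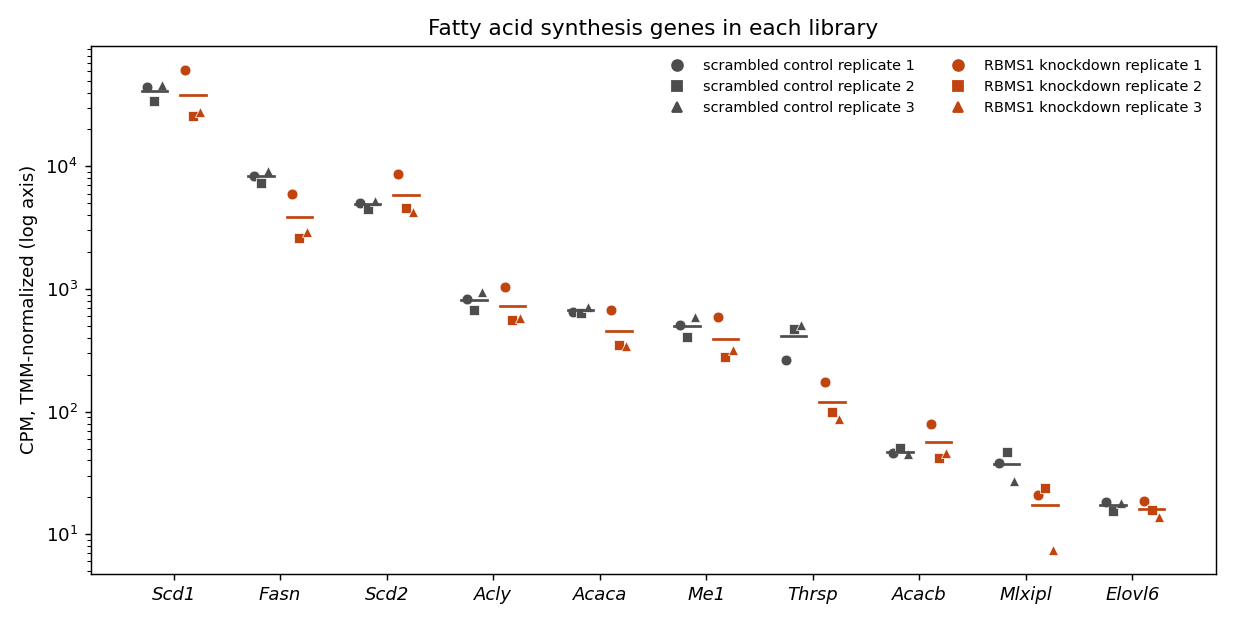
Level of each of the 10 genes in each of the 6 libraries, in TMM-normalized CPM on a log axis, with the genes ordered by their mean level. Grey symbols are scrambled control and orange symbols RBMS1 knockdown libraries, the shape gives the replicate number, and the horizontal lines are group means. Knockdown replicate 1 is the highest of the 3 knockdown libraries for every gene but Mlxipl.

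Thrsp was measured at 263, 469 and 508 CPM in scrambled control replicates 1, 2 and 3 and at 173, 99.7 and 87.5 CPM in RBMS1 knockdown replicates 1, 2 and 3. The groups did not overlap, but control replicate 1 lay closer to knockdown replicate 1 than to the other controls. The mean fell from 413 ± 132 to 120 ± 46.5 CPM (SD, n = 3 each), a log2 fold change of -1.78 (SE 0.31, 95% interval -2.49 to -1.08, adjusted p = 0.0529). When libraries were left out in turn, the call was lost without control replicate 2 (adjusted p = 0.228), without control replicate 3 (0.215) and without knockdown replicate 2 (0.201), while the fold change stayed between -2.14 and -1.38 under every alternative tried. Only 853 to 2955 estimated counts per library stood behind these values.

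Mlxipl, which encodes the glucose-responsive factor ChREBP, was measured at 38.1, 47.1 and 27.2 CPM in the controls and at 21.0, 24.0 and 7.49 CPM in the knockdown libraries. It was the single member whose highest knockdown value was in replicate 2, and the groups were separated by a narrow gap between control replicate 3 and knockdown replicate 2. The log2 fold change was -1.10 (SE 0.39, 95% interval -1.97 to -0.22, adjusted p = 0.283), on 95 to 238 estimated counts per library. It was called under none of the alternatives (adjusted p from 0.130 to 0.623).

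Fasn, the enzyme that carries out the chain-building steps, was measured at 8420, 7366 and 9242 CPM in the controls and at 5990, 2612 and 2908 CPM in the knockdown libraries. Every knockdown library lay below every control, with replicate 1 closest to them. The mean was 8342 ± 940 CPM in the controls and 3837 ± 1871 CPM in the knockdown (46.0% of control, SD, n = 3 each). With a log2 fold change of -1.12 (SE 0.40, 95% interval -2.02 to -0.22), the adjusted p was 0.289 in edgeR. DESeq2 called it at an adjusted p of 0.00950 with nearly the same fold change, and DESeq2 called 3.20% of the genes it gave an adjusted p in either direction and 2.12% lower. Fasn was also called without knockdown replicate 1 (-1.59, adjusted p = 0.0201).

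Neither carboxylase was called. Acaca was measured at 646, 642 and 716 CPM in the controls and at 678, 353 and 343 CPM in the knockdown libraries, so knockdown replicate 1 sat among the controls and replicates 2 and 3 well below them. The log2 fold change was -0.54 (SE 0.26, 95% interval -1.14 to 0.05, adjusted p = 0.445). Acacb was measured at 46.2, 50.1 and 45.3 CPM in the controls and at 79.8, 42.1 and 46.2 CPM in the knockdown libraries, where replicate 1 exceeded all other libraries and replicates 2 and 3 were just under or within the control range. Its log2 fold change was 0.25 (SE 0.24, 95% interval -0.29 to 0.78, adjusted p = 0.730).

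Of the enzymes that supply substrate, Acly was measured at 822, 670 and 940 CPM in the controls and at 1031, 555 and 578 CPM in the knockdown libraries. Me1 was measured at 507, 403 and 590 CPM in the controls and at 588, 279 and 316 CPM in the knockdown libraries. For both, knockdown replicates 2 and 3 lay below all controls and replicate 1 at or above the upper end of the control range. The log2 fold changes were -0.17 for Acly (SE 0.27, 95% interval -0.77 to 0.43, adjusted p = 0.847) and -0.34 for Me1 (SE 0.28, 95% interval -0.98 to 0.29, adjusted p = 0.676).

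Scd1 was the most abundant member, at 44121, 33909 and 46366 CPM in the controls and at 61135, 25662 and 27930 CPM in the knockdown libraries. The knockdown libraries lay on both sides of the control range. The log2 fold change of Scd1 was -0.12, with a wide interval in edgeR (SE 0.73, 95% interval -1.76 to 1.53, adjusted p = 0.966). Its SE was smaller in DESeq2 (0.30) and limma-voom (0.36), and neither called it. Scd2 was measured at 5028, 4523 and 5260 CPM in the controls and at 8706, 4588 and 4241 CPM in the knockdown libraries, with a log2 fold change of 0.24 (SE 0.36, 95% interval -0.58 to 1.06, adjusted p = 0.840). Again replicate 1 was the high knockdown library. Elovl6, the elongase acting on palmitate, stayed low and even, at 18.3, 15.4 and 18.1 CPM in the controls and at 18.7, 15.7 and 13.7 CPM in the knockdown libraries (log2 fold change -0.11, SE 0.20, 95% interval -0.57 to 0.34, adjusted p = 0.869). Its groups overlapped, on 31 to 187 estimated counts per library.

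Compared per length of annotated exon, the order of the control levels was Scd1 (8476 ± 1357 CPM per kb, SD, n = 3), Scd2 (904 ± 68.9), Fasn (762 ± 85.9), Thrsp (189 ± 60.2), Acly (154 ± 25.6), Me1 (130 ± 24.3), Acaca (39.1 ± 2.45), Mlxipl (6.77 ± 1.81), Acacb (4.90 ± 0.269) and Elovl6 (2.68 ± 0.250). The control ranges of Scd2 and Fasn overlapped, as did those of Thrsp, Acly and Me1 and those of Mlxipl and Acacb. Within each control library, Scd2 was above Fasn, Acly above Me1 and Mlxipl above Acacb. Thrsp was below Acly and Me1 in control replicate 1 and above both in the other controls, so its place beside them is not settled. In the knockdown libraries Fasn had a mean of 350 CPM per kb beside 1070 for Scd2, and Thrsp, at 54.9, was below Acly (137) and Me1 (102) in every library. Mlxipl, at 3.16 CPM per kb, likewise came after Acacb, at 5.82.

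Knockdown replicate 1 stood apart from the other knockdown libraries in this pathway. It was the highest of the 3 for 9 of 10 members, and for 37.3% of all tested genes, and it exceeded the highest control for 5 members (Acly, Scd1, Elovl6, Scd2 and Acacb, against 29.0% of all tested genes). By contrast, 7 members (Thrsp, Fasn, Mlxipl, Acaca, Me1, Acly and Scd1) were below the lowest control in both replicates 2 and 3, as were 17.6% of all tested genes. Knockdown replicate 1 also had an adipocyte marker sum near that of the controls, whereas those of replicates 2 and 3 were lower than in any control, and its fibroblast marker sum was the lowest of all libraries (5753 CPM). Rbms1 was lowest in knockdown replicate 1, at 49.2 CPM beside 61.4 and 84.0 CPM in replicates 2 and 3. The part of the marker and Rbms1 differences in the results was not tested. With all 6 libraries, 11 of 12 adipocyte markers were below 0 (median -0.39) and edgeR called 1, Retn (resistin), at 240.0, 311 and 204 CPM in the controls and 134, 54.7 and 48.7 CPM in the knockdown libraries (-1.67, adjusted p = 0.0967, lost under 9 of 17 alternatives). Of the 11 fibroblast markers tested, edgeR called none, with 2 at an unadjusted p under 0.05, and DESeq2 called Pdgfra lower (adjusted p = 0.0277). Of the adipocyte markers DESeq2 called Lpl and Retn lower and Cd36 higher (0.74, adjusted p = 0.0156). Its calls over all genes with an adjusted p were 3.20% in either direction and 2.12% lower. Without knockdown replicate 1, 4 members were called and all lower, namely Thrsp (-2.14, adjusted p = 0.00651), Fasn, Acaca (-0.93, adjusted p = 0.0150) and Me1 (-0.74, adjusted p = 0.0661), beside 3.63% of all tested genes called lower. All 10 members were then below 0, with a median of -0.68, and the adipocyte markers had 8 of 12 genes called lower. The fibroblast markers then had a median of 0.36, with 5 of 11 higher at an unadjusted p under 0.05, Acta2 called higher and Pdgfra called lower.

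**Figure D2:**
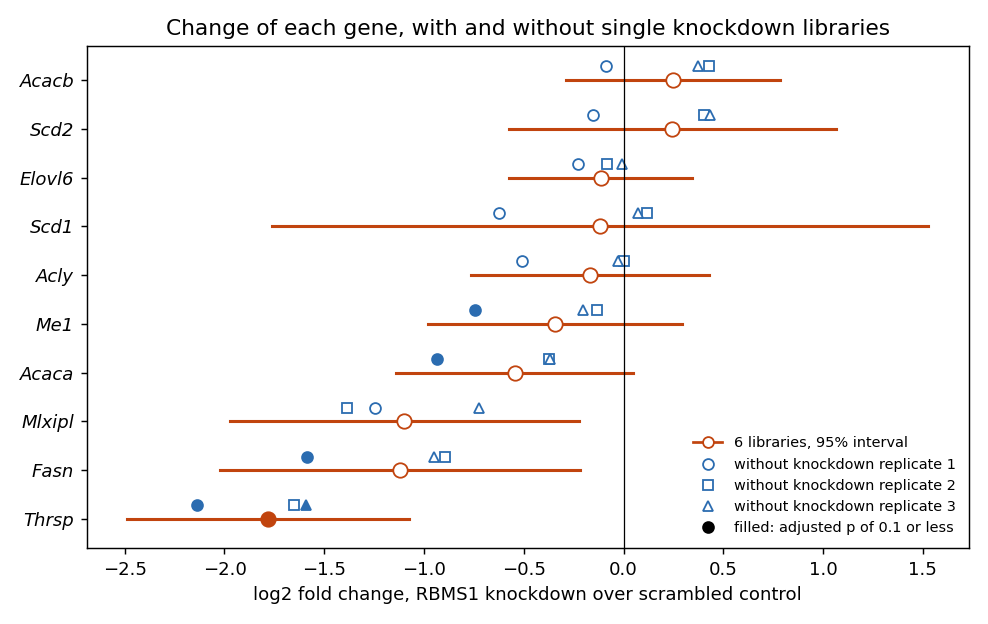
Log2 fold change of each gene, RBMS1 knockdown over scrambled control, with all 6 libraries (orange circles with 95% intervals) and without knockdown replicate 1, 2 or 3 (blue circles, squares and triangles). Filled symbols have an adjusted p of 0.1 or less. Leaving out replicate 1 moves every gene to a lower value, and Thrsp is the single gene called with all 6 libraries.

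Count ratios between members within a library do not depend on how libraries are scaled. The ratio of Acaca to Acacb counts was 14.0, 12.8 and 15.8 in the controls and 8.50, 8.37 and 7.43 in the knockdown libraries, lower in all 3 including replicate 1. The mean log2 ratio differed by -0.80, or 0.573-fold, which in an exact two-sided permutation test gave p = 0.1, the smallest value that 3 against 3 samples allow. The ratio of Scd1 to Scd2 counts was 8.78, 7.50 and 8.82 in the controls and 7.02, 5.59 and 6.58 in the knockdown libraries. Here too the groups did not overlap (log2 difference -0.39, 0.764-fold, exact permutation p = 0.1). With 2 ratios planned, the Benjamini-Hochberg adjusted values are also 0.1, and neither passed 0.05 because the design cannot.

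Fasn was low in relation to most other members. Its count was 0.191, 0.217 and 0.199 times that of Scd1 in the controls and 0.0980, 0.102 and 0.104 times in the knockdown libraries, a mean ratio 0.501-fold that of the controls. The groups were far apart beside their own spread, since the log2 ratios had SDs of 0.095 in the controls and 0.044 in the knockdown. Beside Acly, the Fasn ratio was 10.2, 11.0 and 9.83 in the controls and 5.81, 4.70 and 5.02 in the knockdown libraries. Beside Acaca, the enzyme that supplies its malonyl-CoA, it was 13.0, 11.5 and 12.9 in the controls and 8.82, 7.40 and 8.46 in the knockdown libraries. These 3 pairs were chosen after their values were seen and are given without a test.

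Over all 45 pairs of the 10 genes, the ratio separated the groups in 26 (57.8%). The same held for 18.5% of all pairs of tested genes and for 21.4% of pairs among the 6557 genes at least as abundant as the least abundant member. Pairs share genes and are not independent. The members also varied together within the groups, with a median correlation of 0.84 between their deviations from the group means. The pairs over all tested genes were not matched for this. Of the 9 ratios of each gene to a partner, 7 separated for Thrsp and 7 for Fasn, each of them lower in the knockdown than in the control, and 6 separated for Scd2 and 6 for Acacb, each of them higher in the knockdown. Acaca, Me1 and Acly each separated from 6 partners and Scd1 from 5, in both directions. Elovl6 separated from 2 partners and Mlxipl from 1, although Mlxipl itself did not overlap between the groups, and the log2 ratios with Mlxipl were widely spread in the knockdown (SD 0.93 for Fasn to Mlxipl). Of the pairs that did not separate, the mean log2 ratio differed by 0.0059 for Acly to Scd1 and by -0.02 for Scd2 to Acacb, while Thrsp to Fasn stood at 0.675-fold with overlapping groups.

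**Figure D3:**
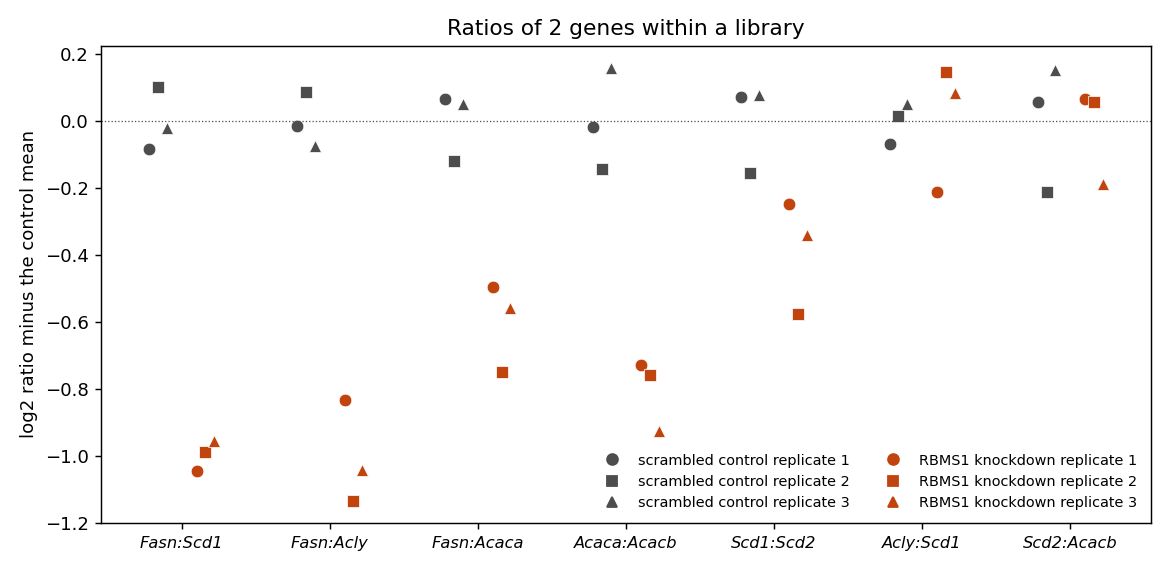
Log2 ratio of the counts of 2 genes within each library, shown relative to the mean of the 3 control libraries (dotted line at 0), for 7 pairs of the 10 genes. Grey symbols are scrambled control and orange symbols RBMS1 knockdown libraries. The 3 ratios with Fasn, Acaca to Acacb and Scd1 to Scd2 lie below all controls in every knockdown library, and Acly to Scd1 and Scd2 to Acacb do not.

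Sequence shared with other genes limits some of these values, because estimated counts can be divided among near-identical transcripts. Fasn, Acly and Acacb shared no 31-base word with the transcripts of any other annotated gene. Scd1 shared 8.14% of its words and Scd2 6.81%, mainly with Scd3, and Scd3 received only 60.2 to 539.6 counts per library. Acaca shared 33.4% and Me1 30.0%, mainly with the annotated genes Gm5182 (Acaca) and Gm7049 (Me1). Neither name occurs among the genes counted here, so no estimated counts were assigned under these names. Gm7329, which also shares words with Me1, received 0 to 92.2 counts per library, beside 812 to 4298 for Me1. The levels of Acaca and Me1 are less certain because of the sharing, by an amount that was not tested.

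Around the pathway, 45 genes of 5 further lists passed the filter, and edgeR and limma-voom called none of them with all 6 libraries. Without knockdown replicate 1, edgeR called 7 of the 45, all lower (Acss2, G6pdx, Mlx, Ndufab1, Pdhb, Srebf1 and Tecr), beside 3.63% of all tested genes called lower in that setting. That setting also raised the calls among all genes from 140 to 696. When any other single library was left out, edgeR called none of the genes in these lists. With all 6 libraries, 5 of the 45 were lower and 3 higher at an unadjusted p under 0.05 in edgeR, beside 12.4% of all tested genes in either direction. DESeq2 tested 49 genes of these lists and called 2, both higher. Among all genes it gave an adjusted p, DESeq2 called 3.20% in either direction and 2.12% lower. The medians below are from TMM scaling, and with library sizes alone those of the 5 lists, in the order given here, were 0.12, 0.30, 0.099, -0.035 and 0.69 beside 0.37 over all tested genes. Among the genes that supply acetyl-CoA, citrate and NADPH, 10 of 11 were below 0, with a median of -0.24. G6pdx, the entry enzyme of the pentose phosphate pathway, was at 191, 185 and 165 CPM in the controls and at 169, 97.0 and 81.8 CPM in the knockdown libraries (-0.64, adjusted p = 0.337). Acss2, which makes acetyl-CoA from acetate, was at 220, 190 and 282 CPM in the controls and at 242, 110 and 121 CPM in the knockdown libraries (-0.55, adjusted p = 0.490). Like 9 of the 10 members, both were higher in knockdown replicate 1 than in replicates 2 and 3, and both were called lower without it (-1.01, adjusted p = 0.0121, and -0.99, adjusted p = 0.0242). Pcx, the most abundant gene of this list, which replenishes oxaloacetate, had a log2 fold change of -0.13 (adjusted p = 0.900).

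The 11 regulators of lipogenic transcription had a median of -0.095, and 7 were below 0. Srebf1, whose product includes SREBP-1c, was at 158, 143 and 104 CPM in the controls and at 126, 71.1 and 77.2 CPM in the knockdown libraries (-0.57, adjusted p = 0.388). Mlx, the dimerization partner of ChREBP, was at 36.1, 33.7 and 42.5 CPM in the controls and at 39.4, 18.9 and 21.3 CPM in the knockdown libraries (-0.50, adjusted p = 0.496). In both genes knockdown replicate 1 overlapped the controls, and both were called lower without it (adjusted p = 0.0462 and 0.0437). Insig1, which retains the SREBP complex in the endoplasmic reticulum and was the most abundant regulator, had a log2 fold change of -0.19 (adjusted p = 0.781).

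The 5 genes of carboxylase control and malonyl-CoA were all below 0 (median -0.32), and 3 were lower in every knockdown library than in every control, beside 9.55% of all tested genes. Mid1ip1, a paralog of Thrsp whose product promotes the polymerization of acetyl-CoA carboxylase, was at 123, 77.9 and 81.4 CPM in the controls and at 72.2, 57.0 and 59.6 CPM in the knockdown libraries (-0.58, adjusted p = 0.274). Acsf3, the mitochondrial malonyl-CoA synthetase, had a log2 fold change of -0.40 (adjusted p = 0.528). The mitochondrial fatty acid synthesis pathway, which makes the lipoic acid precursor, had all 5 tested genes below 0 (median -0.39), led by Mecr (-0.54, adjusted p = 0.358) and Ndufab1, the acyl carrier protein (-0.41, adjusted p = 0.404, and 0.0643 without knockdown replicate 1).

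Other elongases, desaturases and elongation-cycle genes lay mostly on the other side, with 4 of 13 below 0 and a median of 0.32. Fads1, the delta-5 desaturase of polyunsaturated fatty acids, was at 291, 252 and 273 CPM in the controls and at 523, 311 and 444 CPM in the knockdown libraries (0.65, adjusted p = 0.221). Its neighbour Fads2, the delta-6 desaturase, was at 185, 163 and 231 CPM in the controls and at 353, 222 and 358 CPM in the knockdown libraries (0.69, adjusted p = 0.227), where replicate 2 overlapped the controls. DESeq2 called both higher (adjusted p = 0.0767 and 0.0901). Elovl4 had the largest fold change of this list (1.31, adjusted p = 0.491), on only 1, 2 and 7 counts in the controls and 13, 17 and 23 counts in the knockdown libraries.

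**Figure D4:**
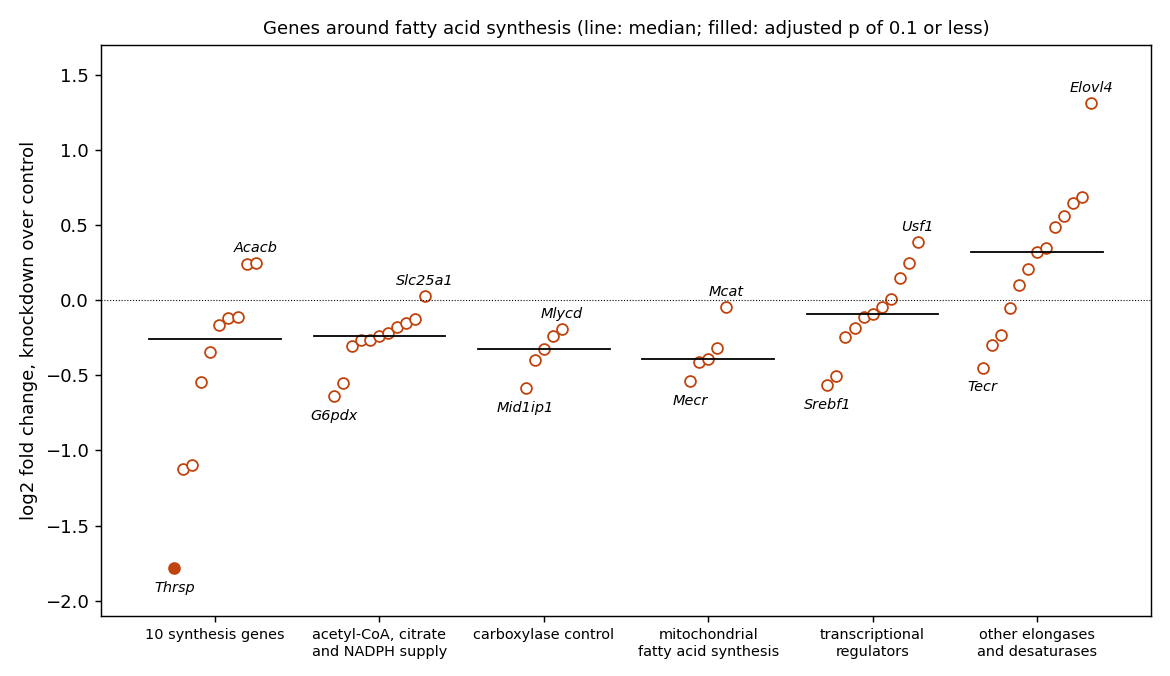
Log2 fold change (RBMS1 knockdown over scrambled control) of each tested gene in the set of 10 and in the 5 further lists, with a line at the median of each list. The filled symbol is Thrsp, the gene called at an adjusted p of 0.1 or less, and the list of other elongases and desaturases has its median above 0.

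The genes whose levels followed Thrsp most closely over the 6 libraries, by Pearson correlation of log2 CPM among 8571 genes with a mean log2 CPM of at least 3, were Cyld (0.999), Denr (0.996), Slc43a1 (0.994), Adck3 (0.992) and Sephs2 (0.990). Altogether 83 genes had a coefficient over 0.95, and the libraries share group, depth and marker differences, so the coefficients are a description. Slc43a1, an amino acid transporter, and Adck3, which takes part in coenzyme Q synthesis, had changes of like size (-1.70, adjusted p = 0.117, and -1.41, adjusted p = 0.105), and Cyld, Denr and Sephs2 had smaller ones (-0.70, -0.51 and -0.60). None of the 5 was called.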

How the data were processed

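RNA of 6 day 7 cultures was sequenced after ribosomal RNA depletion. The authors used Trim Galore 0.6.7 for trimming, STAR 2.7.10a for alignment to GRCm38 and Salmon 1.9.0 for counting, and the deposited values are unnormalized estimated counts per gene. The annotation release is not given in the sources used here. Estimated counts that were not whole (3.97% to 7.78% per library, tolerance 1e-06) were rounded. The quasi-likelihood test of edgeR 4.0.16 (R 4.3.3), with filterByExpr, TMM factors and the group as the only term, was applied, and p-values were adjusted over 11440 genes. Alternatives were DESeq2 1.42.0, limma-voom (limma 3.58.1), other scalings and filters, unrounded counts, a replicate block and each library left out. All tools were tested on simulated data.

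The named genes are the 10 members, Rbms1, from each further list its called genes, the 2 largest fold changes and the most abundant gene, and the 5 genes most like Thrsp. Members, lists and tests were chosen with earlier results of these data known. The 2 planned ratios, Acaca to Acacb and Scd1 to Scd2, used counts plus 0.5. All other within-library ratios used CPM plus 0.5, so at low CPM they depend in part on library scaling. Gene models and exon lengths came from GENCODE on GRCm38, which held 11402 of the tested genes, and promoter sequences from RefSeq (GRCm38.p6). Hsd17b8 is not reported here.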

Additional observations from a re-analysis of the deposited data

How the results depend on the processing

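All values in this section compare knockdown with control. The number of genes called, 140 (104 lower and 36 higher), was 430 with DESeq2, 268 without a filter on low counts, 39 with a replicate block and 12 to 696 when a library was left out, and with library sizes alone it was 126 (42 lower and 84 higher). The number of member genes called, 1, was 2 with DESeq2, 0 with the replicate block and 0 to 4 when a library was left out, being 0 without control replicate 2, control replicate 3 or knockdown replicate 2 and 4 without knockdown replicate 1. The member median, -0.26, was 0.084 with library sizes alone (all genes 0.37), and when a library was left out it ranged from -0.68 without knockdown replicate 1 to -0.11 without knockdown replicate 2. Of the member fold changes, Thrsp, Fasn, Mlxipl, Acaca and Me1 were below 0 under all 17 alternatives, a sign that leaving out a library could hardly turn for the first 3, whose groups did not overlap. Acly, Scd1 and Elovl6 turned to 0.17, 0.22 and 0.23 with library sizes alone, Scd2 and Acacb to -0.15 and -0.087 without knockdown replicate 1, Acly to 0.0026 and Scd1 to 0.12 without knockdown replicate 2, and Scd1 to 0.072 without knockdown replicate 3, none of them called. The cause of these shifts was not tested.

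Under the replicate block the call of Thrsp was lost (-1.81, adjusted p = 0.190). The deviations of same-numbered libraries from their group means correlated at -0.15, 0.091 and -0.035, and not every library correlated best with its own number. With so few libraries, these correlations cannot decide whether the numbers pair the cultures. Within pairs the log2 ratio differences were -0.39 (Scd1 to Scd2) and -0.80 (Acaca to Acacb), with exact permutation p = 0.25, the smallest that 3 pairs allow. With each library left out the differences were -0.47 to -0.29 and -0.88 to -0.72, and with pseudocounts of 0 and 5 they were -0.39 for Scd1 to Scd2 and -0.81 and -0.78 for Acaca to Acacb. As the groups did not overlap, leaving out a library could not turn either direction or reduce the count of separating pairs (26 to 36). The earlier quasi-likelihood estimate of edgeR, library sizes without the 10 members and the pair counts without single libraries were chosen after seeing the data, and the first pair of these left 1 member called. Depth limits Elovl6 and Mlxipl most, with as few as 31 and 95 counts in a library.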

Other observations

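Fads3, the third desaturase gene of the Fads cluster on chromosome 19, was chosen after its values were seen. It was at 252, 201 and 173 CPM in the controls and at 294, 304 and 279 CPM in the knockdown libraries, higher in each knockdown library than in each control (log2 fold change 0.48, SE 0.17, adjusted p = 0.276 in edgeR). Among all tested genes 8.96% were higher without overlap. Unlike most fatty acid synthesis genes, it was not highest in knockdown replicate 1.

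Elovl3, an elongase known from brown and cold-exposed fat, did not pass the filter on low counts. It was at 3, 2 and 2 counts in the controls and at 38, 13 and 1 counts in the knockdown libraries, so knockdown replicate 3 was no higher than the controls. Scd3, which shares sequence with Scd1 and Scd2, was likewise highest in knockdown replicate 1 and lowest in knockdown replicate 3, at 21.2, 29.8 and 32.9 CPM in the controls and 77.6, 39.7 and 6.61 CPM in the knockdown libraries (log2 fold change 0.56, SE 0.64, adjusted p = 0.774 in edgeR). Both genes were chosen after their values were seen.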
